A study of Rattus norvegicus with 12 samples.

Results

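The genes described here are Csf2rb, Prg4, Zbtb7c, Prss23 and Nfe2l3, 5 of the 12271 genes listed for cultured neonatal rat cardiac fibroblasts. They were chosen by their measured normalized counts, whose level after combined knockdown of Yap and Wwtr1 departed from the product of both single knockdown effects. That departure is therefore described and not tested. All 5 were among the 11871 genes that were tested, which averaged 10 or more normalized counts. Cells came from Sprague Dawley rats at postnatal day 2 and received negative control siRNA, Yap siRNA, Wwtr1 siRNA, or Yap and Wwtr1 siRNA together, and RNA was collected 48 h after transfection per the labels, whereas the study's methods count that interval from a later change of medium. Each group had 3 libraries, from separate litters per the study's methods. Each target was depleted with a pair of siRNAs at 25 nM each, and the siRNA label of the double knockdown names only the Wwtr1 pair. Whether the total amount of siRNA was matched between single and double knockdown is not given in the sources used here.

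Yap (gene symbol Yap1) and Wwtr1, also known as Taz, are closely related transcriptional coactivators held in check by the Hippo kinases. They do not bind DNA themselves and act mainly through TEAD transcription factors. Because each can occupy the same partners, loss of one can be buffered by the other, and combined depletion is the usual way to look past that buffering. In cardiac fibroblasts they are known for their part in proliferation and in the myofibroblast state.

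Of the 5 genes, 2 were higher in the double knockdown. Csf2rb encodes the signalling chain shared by the receptors for GM-CSF, IL-3 and IL-5, and Prg4 encodes lubricin, a secreted proteoglycan that lubricates joint and serosal surfaces. The other 3 were lower. Zbtb7c encodes a BTB zinc finger transcription factor, Prss23 a secreted serine protease, and Nfe2l3 a transcription factor of the CNC basic leucine zipper family, to which the antioxidant regulator Nfe2l2 also belongs.

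Promoter sequences were looked up in RefSeq (assembly GRCr8), which held entries for Prg4, Zbtb7c and Nfe2l3, 3 of the 5 genes. The 250 bases before the transcription start are shown for the gene of the 5 that differed most upward and the gene that differed most downward in the double knockdown. Capitals mark a match to the TEAD motif GGAATG or its reverse complement CATTCC. Expression was counted on another build (rn6), so the coordinates apply to GRCr8 alone.
Prg4, chr13:65054226-65054475, minus strand, 5′ to 3′: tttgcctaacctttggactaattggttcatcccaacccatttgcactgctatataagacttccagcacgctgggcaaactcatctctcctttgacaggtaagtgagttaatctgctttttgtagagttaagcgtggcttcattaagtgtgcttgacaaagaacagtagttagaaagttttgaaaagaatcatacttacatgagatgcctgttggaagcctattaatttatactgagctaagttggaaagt
Nfe2l3, chr4:81837154-81837403, plus strand, 5′ to 3′: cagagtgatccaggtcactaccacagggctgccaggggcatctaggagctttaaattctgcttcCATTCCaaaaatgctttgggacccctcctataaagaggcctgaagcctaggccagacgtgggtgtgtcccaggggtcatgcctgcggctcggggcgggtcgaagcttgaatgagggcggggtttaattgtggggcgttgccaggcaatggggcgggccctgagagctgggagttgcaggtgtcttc

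The Nfe2l3 sequence held a single TEAD match, on the strand opposite to transcription, beginning 186 bases before the start. Over the full 300 bases of each entry, which add 50 bases after the start, the Prg4 and Zbtb7c promoters held none. The motif was present in 13.9% of the 27457 rat promoters of this length. None of the 3 promoters held the AP-1 motif TGANTCA, the GAS motif TTCNNNGAA that STAT factors bind, the ARE motif TGACNNNGC of CNC factors or the interferon motif ISRE, which were present in 7.33%, 8.68%, 12.2% and 3.77% of all promoters. GC content was 39.3% for Prg4, 79.7% for Zbtb7c and 59.7% for Nfe2l3, beside a median of 52.3% over all promoters. These matches describe the letters in the window and were not tested against expression.

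The depletion itself was visible in the libraries. Values are normalized counts, read counts divided by 1 size factor per library. Yap1 had 2984 to 3776 normalized counts under negative siRNA, 532 to 625 under Yap siRNA, 3151 to 3184 under Wwtr1 siRNA, and 713, 739 and 1474 in double knockdown replicates 1, 2 and 3. Wwtr1 had 2280 to 2565 under negative siRNA, 2134 to 2500 under Yap siRNA, 524 to 637 under Wwtr1 siRNA, and 818, 731 and 1056 after depletion of both. Both targets were thus less depleted in the double knockdown (group means of 29.9% and 36.1% of negative siRNA) than in the matching single knockdown (17.7% and 23.7%), and double knockdown replicate 3 kept the most of both. That difference was not tested. Depth lay between 33.9 and 41.1 M recovered reads per library. This is more than the reads per sample named in the study's methods, so these units may not be single reads. Fibroblast markers (10 genes, among them the collagens Col1a1 and Col3a1) summed to between 2652139 and 3843828 normalized counts in every library, and none was at 0. Of these, 4 rose in the double knockdown (Dcn the most, by 2.01) and 2 fell (Col1a2 the most, -0.43). Over all genes tested, 17.1% rose and 15.6% fell in this contrast. The count of fibroblast markers that fell was 0 without negative siRNA replicate 1 or 2 or double knockdown replicate 1. It was 1 without negative siRNA replicate 3 or double knockdown replicate 2. GEO's design text for the series names cardiac myocytes where the title and labels name fibroblasts, and cardiomyocyte markers (10 genes) summed to 42437 to 92904, of which 3 rose (Myh6 the most, by 1.83). Endothelial markers (10 genes) summed to 20646 to 39130, of which 6 rose (Kdr the most, by 1.79). In bulk RNA, a change in the number of cells of a type and a change of RNA per cell cannot be told apart.

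In the double knockdown each of the 5 genes lay outside the range of all 9 other libraries, as did 15.4% of all genes tested (8.63% above, 6.74% below), and nothing is read from this since the genes were chosen by that level. Csf2rb had 320, 311 and 258 normalized counts in negative siRNA replicates 1, 2 and 3, 231, 227 and 179 under Yap siRNA, 142, 192 and 256 under Wwtr1 siRNA, and 1655, 1088 and 2362 after depletion of both. Both single knockdowns sat below the negative siRNA libraries, which they did not overlap, and overlapped each other. The highest library under Wwtr1 siRNA (256 normalized counts) was close to the lowest under negative siRNA (258). The double knockdown went the other way and did not overlap any group.

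Prg4 had 78.0, 26.0 and 55.8 normalized counts under negative siRNA, 83.0, 114 and 58.7 under Yap siRNA, 87.6, 74.5 and 86.4 under Wwtr1 siRNA, and 861, 724 and 1981 after depletion of both. The negative, Yap and Wwtr1 siRNA libraries overlapped, and the lowest double knockdown library stood far above the highest of them. Double knockdown replicate 3 was the highest library for both Prg4 and Csf2rb.

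Zbtb7c had 714, 536 and 560 normalized counts under negative siRNA, 746, 831 and 841 under Yap siRNA, 807, 751 and 783 under Wwtr1 siRNA, and 196, 291 and 311 after depletion of both. Every single knockdown library was above every negative siRNA library, and every double knockdown library was below them. Prss23, the most abundant of the 5, had 8250, 8384 and 8853 under negative siRNA, 7414, 7355 and 8359 under Yap siRNA, 8297, 9455 and 9828 under Wwtr1 siRNA, and 4222, 5086 and 3513 after depletion of both. Its single knockdown libraries overlapped those of negative siRNA, and only the double knockdown stood apart.

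Nfe2l3 had 197, 188 and 164 normalized counts under negative siRNA, 87.1, 57.8 and 91.1 under Yap siRNA, 92.9, 157 and 199 under Wwtr1 siRNA, and 11.9, 21.7 and 34.2 after depletion of both. The double knockdown values rest on 12, 26 and 39 recovered reads, the fewest of the 5 genes. Its order was stepwise, with the double knockdown lowest, then Yap siRNA, then Wwtr1 siRNA, whose libraries overlapped those of negative siRNA. It differed more from negative siRNA after Yap siRNA alone than any of the other 4, at 43.0% of the negative siRNA mean, and those libraries did not overlap.

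**Figure D1:**
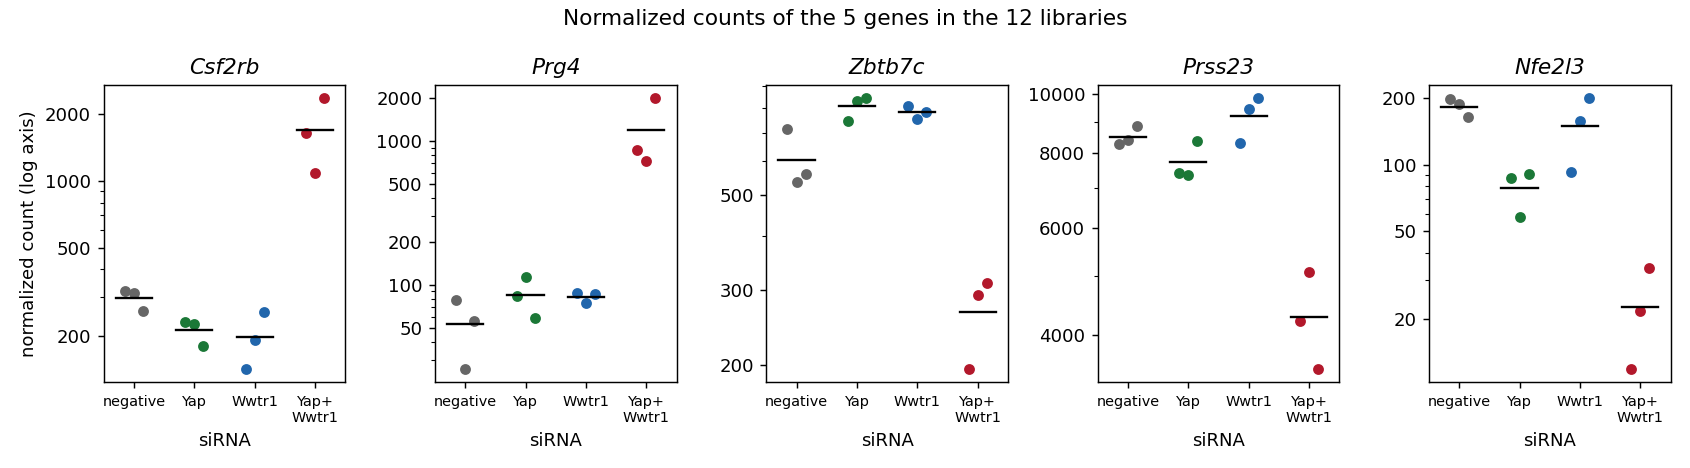
Normalized counts (log axis) of the 5 genes by siRNA group; each point is 1 of the 12 libraries and the black line is the group mean of 3 libraries. The red double knockdown points lie above all others for Csf2rb and Prg4, and below all others for Zbtb7c, Prss23 and Nfe2l3.

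On the log2(normalized count + 1) scale, Csf2rb differed from negative siRNA by -0.48 (SE 0.27) under Yap siRNA and by -0.62 (SE 0.27) under Wwtr1 siRNA, where the product of both predicts a further fall. Multiplying the single effects on the group means gives 141 normalized counts and adding them gives 112, whereas the double knockdown mean was 1702 ± 638 (SD, n = 3), 12.1 times the product. The interaction, the log2 effect of both siRNAs together less the added log2 effects of each, was 3.56 (SE 0.38). Seen from the other side, Wwtr1 siRNA went with a difference of -0.62 in cells without Yap siRNA and of 2.94 (SE 0.27) in cells that also received Yap siRNA. On the linear scale the double knockdown exceeded the sum of both effects by 1589 normalized counts (SE 371).

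Prg4 lay slightly higher in both single knockdowns, by 0.75 under Yap siRNA and 0.76 under Wwtr1 siRNA (SE 0.43 each). The product of both gives 132 normalized counts and the sum gives 115, against 1189 ± 690 (SD, n = 3) observed, 8.99 times the product. Its interaction was 2.94 (SE 0.61), and on the linear scale it exceeded the sum by 1074 normalized counts (SE 399). Without double knockdown replicate 3 this excess was 678, while the log2 interaction was 2.49.

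Zbtb7c showed a reversal like that of Csf2rb, in the other direction. Its log2 difference was 0.43 under Yap siRNA and 0.38 under Wwtr1 siRNA (SE 0.16 each), and the product of both gives 1042 normalized counts. The double knockdown mean was 266 ± 61.3 (SD, n = 3), 3.92 times lower than that product. The interaction was -2.004 (SE 0.23) and the linear departure from the sum was -717 normalized counts (SE 74.5).

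Prss23 differed little in the single knockdowns, by -0.14 under Yap siRNA and 0.11 under Wwtr1 siRNA (SE 0.12 each), so that the product, 8342 normalized counts, was close to the negative siRNA mean of 8496 ± 317 (SD, n = 3). The double knockdown mean was 4273 ± 788, and the interaction of -0.98 (SE 0.16) nearly equalled the whole double knockdown effect. The linear departure from the sum was -4133 normalized counts (SE 747).

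For Nfe2l3 the log2 difference was -1.23 (SE 0.37) under Yap siRNA and -0.35 (SE 0.37) under Wwtr1 siRNA. The product of both gives 64.3 normalized counts, and the double knockdown mean of 22.6 ± 11.2 (SD, n = 3) was 2.84 times lower, with an interaction of -1.49 (SE 0.53). The sum of both gives 45.3, and the departure from it was -22.7 normalized counts with an SE of 34.7. Without Wwtr1 siRNA replicate 3 that departure was 2.04.

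**Figure D2:**
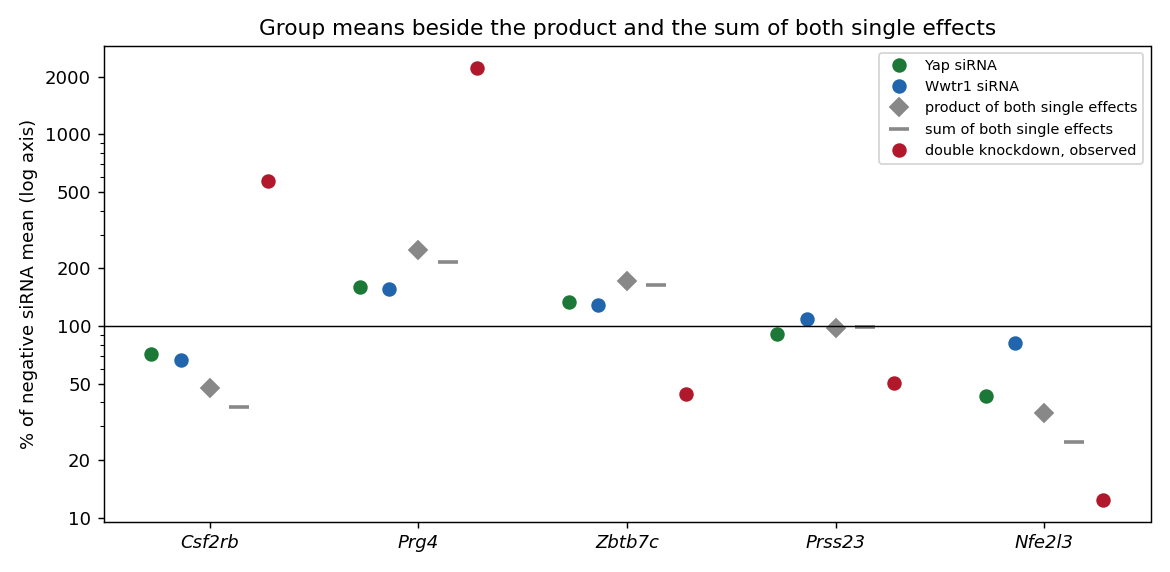
Group means as a percentage of the negative siRNA mean (log axis, the line marks 100%) for each single knockdown, for the product and the sum of both single effects, and for the observed double knockdown. The observed mean was 574% for Csf2rb and 2232% for Prg4 where the product gives 47.5% and 248%, and 44.1%, 50.3% and 12.4% for Zbtb7c, Prss23 and Nfe2l3 where it gives 173%, 98.2% and 35.1%.

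Over all genes tested, 122 passed an adjusted P of 0.05 for the interaction (limma, Benjamini-Hochberg), 1.03% of them, and 4 of the 5 genes were among these. Nfe2l3 was not. Since this measure chose the genes, nothing is read from that count, and with 1 library omitted Prg4 was not called in 10 of 12 fits and Prss23 in 5. Neither was called with no trend. Ranked by size among interactions of the same sign over the 11871 genes, Csf2rb stood 36th, Prg4 56th, Zbtb7c 129th, Nfe2l3 205th and Prss23 425th. When each of the 12 libraries was left out in turn, the log2 interaction ran from 3.29 to 3.85 for Csf2rb, from 2.49 to 3.37 for Prg4, from -2.13 to -1.80 for Zbtb7c, from -1.11 to -0.84 for Prss23 and from -1.84 to -1.11 for Nfe2l3. These ranges describe the measure that chose the genes, and their sign is no check of it.

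**Figure D3:**
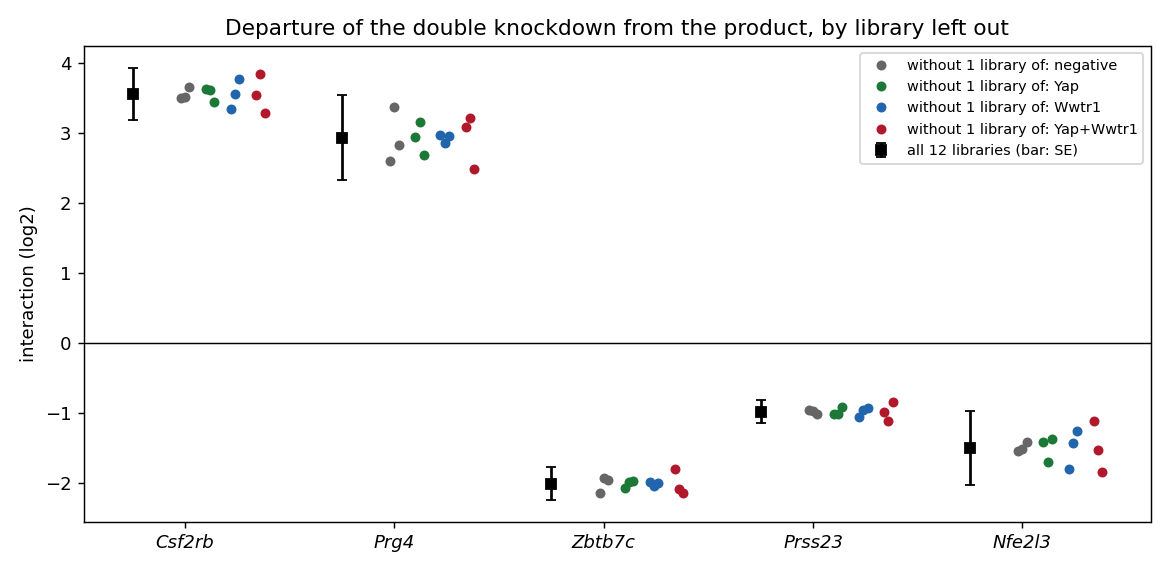
Log2 interaction of the 5 genes from all 12 libraries (black squares, bar: SE) and with 1 library left out (coloured points, by the group of that library). Csf2rb and Prg4 lie above 0 and Zbtb7c, Prss23 and Nfe2l3 below 0, as the choice of the genes leads to.

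Against negative siRNA, 32.8% of all genes tested passed in the double knockdown (17.1% higher, 15.6% lower). For the 5 genes this difference is described without a test, because the double knockdown level is part of the measure that chose them. It was 2.45 on the log2 scale for Csf2rb (SE 0.27, 5.47-fold higher) and 4.44 for Prg4 (SE 0.43, 21.7-fold higher). For Zbtb7c it was -1.20 (SE 0.16, 2.29-fold lower), for Prss23 -1.007 (SE 0.12, 2.01-fold lower) and for Nfe2l3 -3.07 (SE 0.37, 8.42-fold lower). Every double knockdown library showed the direction given for its gene.

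Between Yap and Wwtr1 siRNA, 8.79% of all genes tested passed in the main fit, which is unpaired. With the replicate block and without the double knockdown group, a fit chosen after seeing the data, 22.6% passed. Both single knockdown levels are part of the measure that chose the 5 genes, so their differences are given without a test. Yap less Wwtr1 siRNA was 0.14 on the log2 scale for Csf2rb (SE 0.27), -0.0091 for Prg4 (SE 0.43), 0.045 for Zbtb7c (SE 0.16), -0.25 for Prss23 (SE 0.12) and -0.88 for Nfe2l3 (SE 0.37). The libraries of these groups overlapped for Csf2rb, Prg4, Zbtb7c and Prss23. Those of Nfe2l3 did not, although the highest under Yap siRNA (91.1 normalized counts) was close to the lowest under Wwtr1 siRNA (92.9). Same-numbered libraries of these groups deviated together, and within each of the 3 numbers Yap siRNA was below Wwtr1 siRNA for both Prss23 and Nfe2l3.

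Csf2rb belongs to a receptor whose other chains bind the cytokine, and these did not pass in the double knockdown. Csf2ra, the GM-CSF binding chain, had a log2 difference of -0.05 (SE 0.35, adjusted P = 0.932 by limma). Its double knockdown libraries spread widely, at 663, 1077 and 2397 normalized counts in replicates 1, 2 and 3. Il3ra, the IL-3 binding chain, differed by -0.29 (SE 0.18, adjusted P = 0.256 by limma). Il5ra was not analysed here. Of 13 tested genes of this receptor's signalling, 5 rose and 1 fell, where 17.1% and 15.6% of all genes tested did. The median log2 difference of the 13 was 0.20 beside 0.0035 over all genes. Without double knockdown replicate 1 the median was 0.38. The largest rise was that of Socs1, an inhibitor of cytokine signalling induced by it, from a mean of 60.2 to 320 normalized counts (2.42, SE 0.32). Unlike Csf2rb, Socs1 was already higher in the single knockdowns, with means of 179 under Yap siRNA and 161 under Wwtr1 siRNA. The other risers, named after their values were seen, were the kinase Jak2, the transcription factor Stat5a and the feedback inhibitors Cish and Socs2. The gene that fell was Bcl2l1, which encodes the survival protein Bcl-xL (-0.44, SE 0.13). This count of lower genes was 0 without negative siRNA replicate 3 or double knockdown replicate 1 or 2, and 3 without double knockdown replicate 3.

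Csf2rb is also expressed by leukocytes, and leukocyte markers varied between libraries. The summed level of 19 macrophage and other leukocyte markers was 33248 to 47811 normalized counts under negative siRNA, 28798 to 41918 under Yap siRNA, 18518 to 29001 under Wwtr1 siRNA, and 10766, 20804 and 70928 in double knockdown replicates 1, 2 and 3. In replicate 1 this was the lowest sum of all 12 libraries and 1 marker was at 0, and Csf2rb was at 1655. Csf2rb amounted to 0.550% to 1.008% of the marker sum in the 9 other libraries and to 15.4%, 5.23% and 3.33% in the double knockdown. Of the 19 markers, 1 fell in the double knockdown (Cx3cr1, -4.69) and 18 did not pass. Without replicate 3, 18 fell, and the log2 difference of Csf2rb was 2.18. The part of leukocytes in the level of Csf2rb was not tested.

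Prg4 is made by synovial and mesothelial surfaces together with hyaluronan. Of 14 tested genes of hyaluronan metabolism and lubricated surfaces, 5 rose in the double knockdown (17.1% of all genes did) and 9 did not pass. The median log2 difference of the 14 was 0.92. The hyaluronan synthases Has1 (1.62, SE 0.27, from 111 to 348 normalized counts) and Has2 (0.65, SE 0.22) rose, whereas the synthase Has3 had a difference of -0.013 (adjusted P = 0.988 by limma). Others that rose were, named after their values were seen, the hyaluronidases Hyal1 and Hyal2 and the hyaluronan-binding Tnfaip6. Creb5, a transcription factor known to drive Prg4 in joint surface cells, had a log2 difference of -0.69 (adjusted P = 0.149 by limma). Mesothelial markers (7 genes) summed to 1215 to 1859 normalized counts under negative siRNA to 1400 to 2248 under Yap siRNA, to 1306 to 1740 under Wwtr1 siRNA and to 1699 to 2196 in the double knockdown, with 2 of them at 0 in Yap siRNA replicate 3 and 1 in each of Wwtr1 siRNA replicate 2 and double knockdown replicate 1. Their part in the level of Prg4 was not tested. Among them Upk1b rose (2.49) and Msln, the defining marker mesothelin, fell (-1.62). Prg4 amounted to 1.67% to 6.61% of that sum in the 9 other libraries and to 42.6% to 90.2% in the double knockdown.

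**Figure D4:**
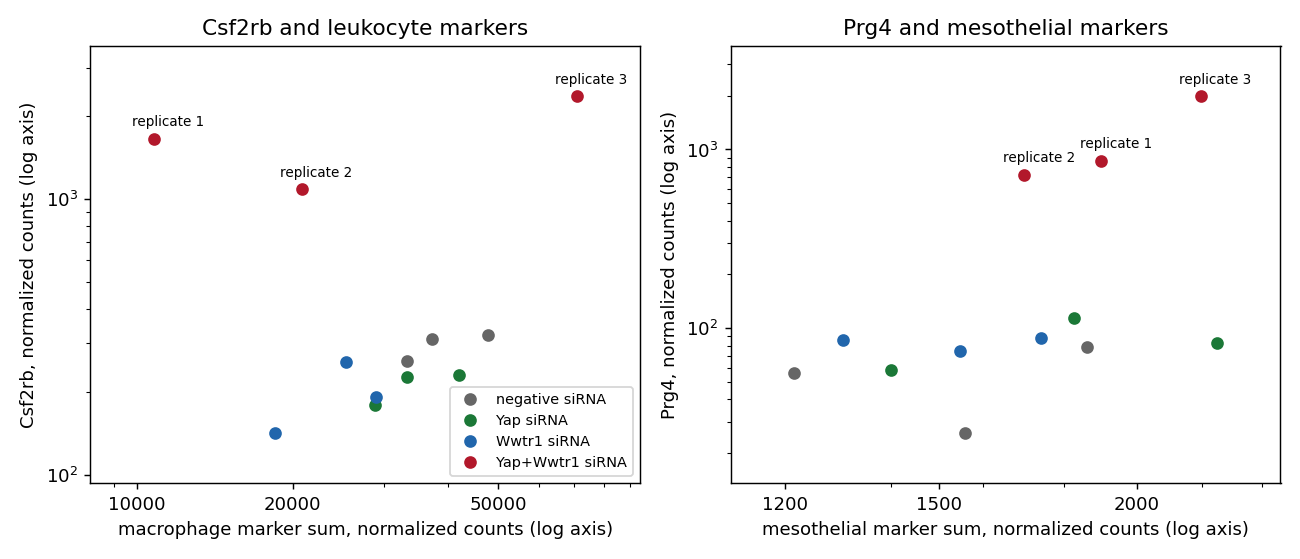
Csf2rb against the summed leukocyte markers and Prg4 against the summed mesothelial markers, in normalized counts (log axes), 1 point per library. The 3 double knockdown points lie above the other 9 in both panels, at leukocyte sums from 10766 to 70928.

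Zbtb7c stood apart from its closest relatives. Zbtb7a had a log2 difference of 0.08 (adjusted P = 0.594 by limma) and Zbtb7b rose by 0.29 (adjusted P = 0.0457). Of 19 other BTB zinc finger genes tested, 3 rose (17.1% of all genes did) and 16 did not pass, with a median of 0.12, the largest rise being that of the repressor Bcl6 (0.83, SE 0.13). The count was 3 without negative siRNA replicate 2 or double knockdown replicate 3, and 2 without any other single library. The median was 0.069 without negative siRNA replicate 3, 0.047 without double knockdown replicate 1 and 0.19 without double knockdown replicate 3.

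Prss35, the nearest relative of Prss23, fell in the double knockdown by 0.68 on the log2 scale (SE 0.13, adjusted P = 0.00259 by limma). Among 21 tested secreted and surface serine proteases and serpins, 7 rose and 3 fell, where 17.1% and 15.6% of all genes tested did. The median of the 21 was 0.13. That median depended on single libraries, at 0.31 and 0.19 without negative siRNA replicate 1 or 2, and 0.26, 0.068 and 0.0035 without double knockdown replicate 1, 2 or 3. Tmprss2, a transmembrane protease, was listed at 0 in all negative siRNA libraries, had 26.2 to 145 normalized counts under Yap siRNA and 31.5 to 142 under Wwtr1 siRNA, and had a mean of 211 in the double knockdown. Of 18 tested Yap target genes, 13 fell (15.6% of all genes did) and 5 did not pass (median -1.0002), and Ccn2 fell the most (-1.85, SE 0.19).

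Its activating relatives Nfe2l1, Nfe2l2 and Nfe2 rose in the double knockdown, and the repressors Bach1 and Bach2, named after their values were seen, had differences of 0.36 and -0.26 that did not pass. Nfe2l1 rose by 0.33 (SE 0.09, adjusted P = 0.0163 by limma), Nfe2l2 by 0.37 (SE 0.08, adjusted P = 0.00501) and the low-abundance Nfe2 by 1.60 (SE 0.50, adjusted P = 0.0288). Of 17 tested genes for CNC factors, their small Maf partners and antioxidant targets, 7 rose and 3 fell. Over all genes tested, 17.1% rose and 15.6% fell. The median of the 17 was 0.13 (0.22 without double knockdown replicate 3). Heme oxygenase Hmox1 rose the most (1.65, SE 0.13) and the cystine transporter Slc7a11 fell the most (-0.88, SE 0.15).

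By gene order in RefSeq (assembly GRCr8), the nearest genes tested on either side were Ncf4 and Tst for Csf2rb, Tpr and Hmcn1 for Prg4, Ctif and Smad2 for Zbtb7c, Fzd4 and Me3 for Prss23, and Cycs and Hnrnpa2b1 for Nfe2l3. Neighbours on both sides of Zbtb7c fell in the double knockdown, Ctif by 0.77 (adjusted P = 0.00421 by limma) and Smad2, a mediator of TGF-beta signals, by 0.60 (adjusted P = 0.000124). Unlike Zbtb7c, neither was higher in the single knockdowns. Under Yap and Wwtr1 siRNA, Ctif differed by -0.27 and -0.05 on the log2 scale and Smad2 by -0.20 and -0.31. Fzd4, a Wnt receptor next to Prss23, fell by 1.34 (adjusted P = 0.00033), but unlike Prss23 it was already at 2903 under Yap siRNA and 3137 under Wwtr1 siRNA, from 5100 normalized counts under negative siRNA. Tst, near Csf2rb, rose by 0.83 (adjusted P = 0.0067). The other 6 neighbours did not pass. Over all genes tested, 32.8% passed in this contrast (17.1% higher, 15.6% lower).

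**Figure D5:**
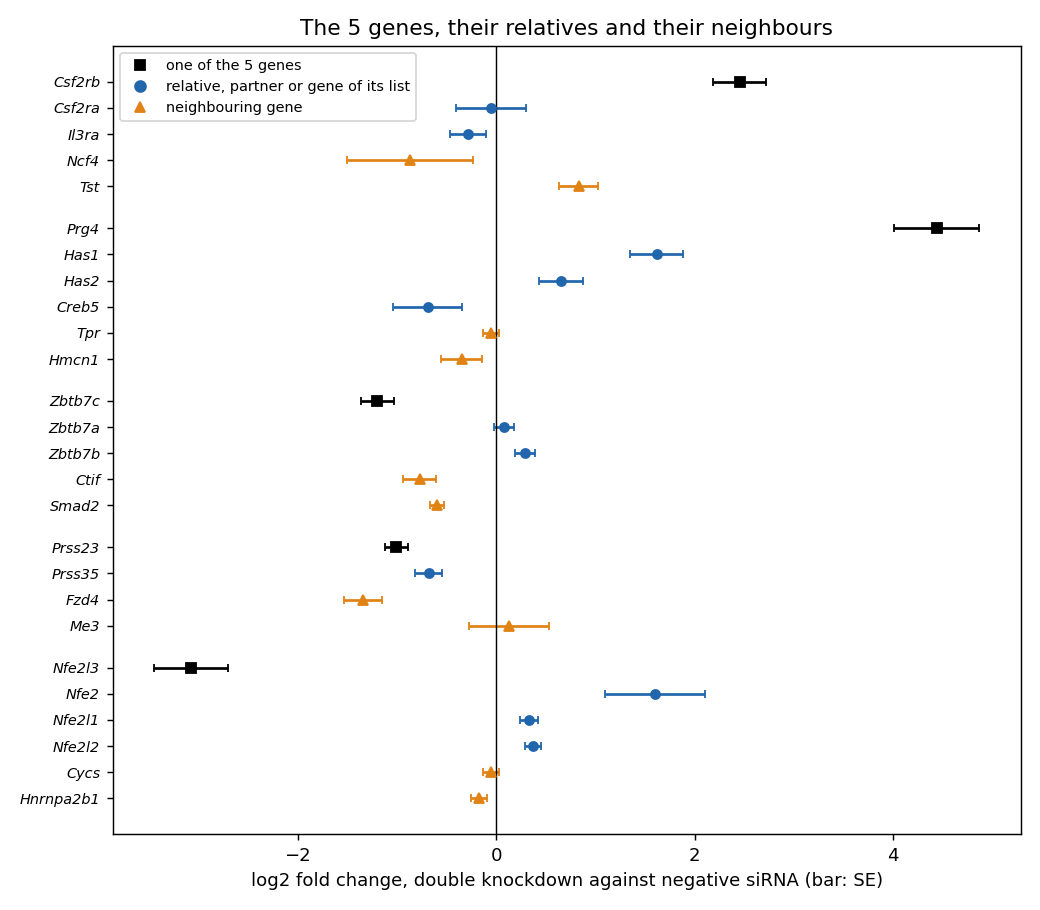
Log2 fold change of the double knockdown against negative siRNA (bar: SE) for the 5 genes (squares), their relatives, partners or list genes (circles) and their neighbours (triangles). Csf2ra lies at -0.05 (SE 0.35) and Il3ra at -0.29 (SE 0.18) beside Csf2rb at 2.45. Prss35 lies below 0 with Prss23, and Nfe2l1, Nfe2l2 and Nfe2 lie above 0 where Nfe2l3 lies at -3.07.

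The genes most like each of the 5 over the 12 libraries were found by Pearson correlation of log2(normalized count + 1) among 10101 genes with a mean of at least 100. All libraries share the same 4 groups, so these values describe likeness of pattern and carry no test. Mmp2, a matrix metalloproteinase, was most like Csf2rb (r = 0.96), followed by angiotensinogen Agt (0.95) and Aldoc (0.94). For Prg4 these were RGD1564664 (0.98), Sox4 (0.97) and Sned1 (0.97). Sned1 moved from a mean of 34.0 normalized counts under negative siRNA to 58.2 and 60.1 in the single knockdowns and 501 in the double knockdown, close in shape to Prg4.

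Cadm1 (0.95), Rps12 (0.94) and Abhd17c (0.93) were most like Zbtb7c, Dennd2b (0.98), Slc39a13 (0.97) and Me1 (0.96) most like Prss23, and Pea15 (0.98), Fads3 (0.97) and Asns (0.96) most like Nfe2l3. Apart from Agt, which went from a mean of 33.9 normalized counts under negative siRNA to 975 in the double knockdown, each of these genes differed less on the log2 scale than the gene it matched. Rps12, a ribosomal protein gene, went from 10483 to 8391.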

How the data were processed

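RNA sequencing of 12 libraries, 3 in each of 4 groups, was analysed, with groups and replicate numbers from the sample titles. Per the labels and the study's methods, the authors trimmed reads with Trim Galore 0.6.5, aligned them to rn6 with HISAT2 2, assembled and quantified with StringTie2 and normalized with DESeq2. The signal values the authors deposited are gene counts divided by 1 size factor per library. Whole reads were recovered for 100% of 147252 values (tolerance 0.01), although whether a unit is a read or a mate is not known. A second deposited table was an identical copy. Tables of the authors' own fold changes and p-values were not used. The annotation, strand setting and gene filter are not given in the sources used here.

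log2(normalized count + 1) was fitted with limma 3.58.1 (R 4.3.3, eBayes with trend) over all 12 libraries, for genes with a mean of at least 10. Fold changes on this scale understate changes of low genes. Tests were two-sided, and p-values were adjusted by Benjamini-Hochberg over 11871 genes with a threshold of 0.05. The fit was first tested on simulated data. The 5 genes, the gene lists and the tests were chosen with earlier results of these data known. Planned tests of these genes in the double knockdown against negative siRNA and in Yap against Wwtr1 siRNA are not reported, because the spread between libraries on the log2 scale differed between groups, which ties both contrasts to the measure that chose the genes. Named genes were the 5, Yap1 and Wwtr1, the 3 genes most like each, the largest called rise and fall in each list (1 of these is not reported here), close relatives, and neighbours by RefSeq order (GRCr8, 96.7% of symbols matched). TEAD letters were searched after the Nfe2l3 promoter had been seen.

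Same-numbered libraries of the negative, Yap and Wwtr1 siRNA groups correlated in their deviations from group means (r = 0.104 to 0.276, separate litters per the study's methods), so the numbers were taken to pair them. The main fit had no term for this pairing, so the SEs and adjusted P values given here are unpaired. Correlations of same-numbered libraries with the double knockdown ran from -0.127 to 0.180, so whether its numbers pair with the other groups is not settled. Alternatives were other pseudocounts, filters and scalings, edgeR 4.0.16 and DESeq2 1.42.0 on recovered reads, no trend, a replicate block, fewer groups and leaving out each library.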

Additional observations from a re-analysis of the deposited data

Results flagged for a closer look

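The limma interaction term was past the threshold for Csf2rb (3.56 on the log2 scale), Prg4 (2.94), Zbtb7c (-2.004) and Prss23 (-0.98). The 4 genes were chosen by this measure, so this is no test of a difference and the values are descriptions. With 1 library omitted, Prg4 was below the threshold in 10 of 12 fits and Prss23 in 5.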

How the results depend on the processing

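The linear departure of Nfe2l3 from the sum was 2.04 without Wwtr1 siRNA replicate 3 (lowest -51.1, without Wwtr1 siRNA replicate 1), that of Prg4 was 678 and that of Csf2rb 1259 without double knockdown replicate 3. The number of genes called for the interaction was 122, and it was 500 with DESeq2, 60 with no trend, 231 with the replicate block, and 31 (without Wwtr1 siRNA replicate 2) to 160 (without double knockdown replicate 3) when 1 library was left out. Genes called between Yap and Wwtr1 siRNA numbered 1044, 2680 with the block and without the double knockdown group (chosen after seeing the data), and 434 (without Wwtr1 siRNA replicate 2) to 1409 (without double knockdown replicate 3) when 1 library was left out. Of the hyaluronan genes, 5 were called in the double knockdown, 8 with the replicate block, and 3 with no trend, with only the groups compared, or without negative siRNA replicate 2 or 3, Wwtr1 siRNA replicate 3 or double knockdown replicate 2. Cardiomyocyte marker calls (3) were 5 with the block and 1 without negative siRNA replicate 3 or double knockdown replicate 2 or 3, and endothelial calls (6) were 3 with only the groups compared. Serine protease and serpin genes called lower (3) were 5 without double knockdown replicate 3, and 1 hyaluronan gene was called lower without that library or without Yap siRNA replicate 1. The causes were not tested. With 3 libraries per group precision is limited, and Nfe2l3 rests on few reads in the double knockdown.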
